A study of Mus musculus with 18 samples.

Results

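Lymphatic endothelial cells, the cells that line lymphatic vessels, were picked out of 8 droplet RNA libraries of mouse urinary bladder by the transcripts they carried. Members were chosen by their measured UMI counts of 5 genes. A barcode with at least 500 unique molecular identifiers (UMIs, each standing for a captured RNA molecule) was taken as lymphatic endothelial when Prox1, Mmrn1, Flt4, Reln and Ccl21a together gave at least 3 UMIs from at least 2 of these genes. At least 1 of those UMIs had to come from Prox1, Mmrn1 or Flt4. This gate kept 391 of 38761 barcodes (1.01%). The comparison class, 983 blood endothelial barcodes, had at least 3 UMIs of Pecam1, Cdh5, Kdr and Flt1 together and 0 of Prox1, Mmrn1 and Flt4. All animals were labelled C57BL/6, an inbred strain, with no treatment or allele named. Whole bladders dissociated to cells gave 5 libraries: one from 22-month-old males (3 animals by the label), one from 3-month-old males (3 animals), a pair at age 12 months and one at age 24 months, these last mixing the sexes (2 females with 2 males each). Nuclei from whole bladder came from 12-month-old mice of both sexes, again 2 of each. The detrusor, the muscle layer of the bladder wall, was sampled alone in 14-month-old females (3 animals) and, as a detrusor-enriched whole-bladder preparation, in 14-month-old mice of both sexes (2 of each). Each library pools animals, so age, sex mix and preparation cannot be told apart between single libraries. Sections of whole bladder (2 of 22 months and 2 of 14 months, labelled 4 males) and bulk RNA of intact and of dissociated bladders (3 libraries each, 12 months, labelled 3 females) were not used by the gate.

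Lymphatic vessels drain fluid, antigen and migrating immune cells from the bladder wall. Their endothelium is specified and kept by the transcription factor Prox1, and grows in response to the ligand VEGF-C, which acts through the receptor encoded by Flt4 (VEGFR-3) with the co-receptor Nrp2. Lymphatic capillaries carry the hyaluronan receptor Lyve1 and secrete the chemokine Ccl21, which draws dendritic cells and T cells bearing its receptor into the vessel, whereas collecting vessels hold valves that depend on Foxc2 and on the integrin subunit Itga9. Blood endothelium shares the junction and receptor genes of the vascular lineage and adds genes for lipid uptake, haemostasis and leukocyte rolling.

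Ccl21a, one of the genes of the gate, has close copies in the mouse genome, and the sequences just upstream of a pair of them are shown to illustrate how close the copies are; they lie outside the genes themselves, and the transcribed parts were not compared. The RefSeq tables (GRCm38.p6) place Ccl21a at chr4:42772860-42773991 and Ccl21d, which the count tables list under the older symbol Gm21541, at chr4:41903613-41904743. The printed stretches are 249 aligned bases just upstream of each gene, 5′ to 3′ on the strand of the gene, at chr4:42773992-42774240 (minus strand) for Ccl21a and chr4:41903363-41903611 (plus strand) for Ccl21d.
Ccl21a: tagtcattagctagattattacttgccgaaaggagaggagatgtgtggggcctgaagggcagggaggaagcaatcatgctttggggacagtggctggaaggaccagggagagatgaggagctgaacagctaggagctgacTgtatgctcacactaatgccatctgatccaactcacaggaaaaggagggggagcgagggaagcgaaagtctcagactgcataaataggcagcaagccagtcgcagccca
Ccl21d: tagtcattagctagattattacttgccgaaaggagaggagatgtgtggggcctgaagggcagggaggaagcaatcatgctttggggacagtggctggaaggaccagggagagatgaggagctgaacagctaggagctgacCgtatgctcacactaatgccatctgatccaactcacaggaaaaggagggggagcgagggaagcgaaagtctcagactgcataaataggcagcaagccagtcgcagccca
The stretches differed at 1 position, T141C counted from 1 at the printed 5′ end and set in capitals, and were 99.6% identical. How reads that match several of these copies were counted is not given in the sources used here, so the split of UMIs between Ccl21a and its copies is uncertain.

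Values below are given in the order 22-month males, 3-month males, nuclei, detrusor only and detrusor enriched, the 5 libraries with at least 10 barcodes of both endothelial classes. Levels are CPM, the usual depth-scaled counts, computed for each class from its summed UMIs over the 26348 gene symbols common to the 8 tables without mitochondrially encoded genes. The genes of the gate are described without a test, since they chose the barcodes. Mmrn1, which encodes the secreted glycoprotein multimerin, stood at 2588, 4030.3, 1982, 2794 and 2540.4 CPM in lymphatic barcodes. Prox1 stood at 338, 113, 385, 589.6 and 518 CPM, and Flt4 at 677, 716, 756, 755 and 699 CPM. Flt4 was within a narrow range in all 5 libraries, while Prox1 was lowest in the 3-month males. That Prox1 value rested on 3 UMIs in 3 of 24 barcodes. Reln, the gene of the secreted matrix glycoprotein reelin, had 779, 1394, 941, 1177 and 969 CPM in lymphatic barcodes and at most 37.8 CPM in blood endothelial barcodes, a class the gate did not restrict for Reln.

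The gate could be checked one gene at a time by choosing barcodes without that gene and reading the gene itself. Chosen without Mmrn1, 87.5%, 50%, 86.2%, 93.3% and 87.3% of lymphatic barcodes had an Mmrn1 UMI. These are shares of 16, 6, 29, 135 and 118 barcodes, against 37, 24, 46, 140 and 141 by the full gate. Most members of the male libraries thus needed Mmrn1 to pass. The 50% of the 3-month males was 3 of 6 (95% exact interval 11.8% to 88.2%). Chosen without Prox1, 23.3%, 8.70%, 39.5%, 87.2% and 70.0% had a Prox1 UMI. The lower shares were those of the libraries with the fewest UMIs per lymphatic barcode, with medians of 1306, 895.5, 978, 7483 and 7220 UMIs. Chosen without Flt4, 45.2%, 22.2%, 52.4%, 94.7% and 78.3% had an Flt4 UMI, and chosen without Reln 60.7%, 50%, 55.8%, 94.2% and 72.6% had a Reln UMI. The Reln share of the 3-month males was 4 of 8 (15.7% to 84.3%). Among all other barcodes of these libraries between 0.0157% and 5.59% had a UMI of the gene left out.

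Ccl21a set the libraries apart. Lymphatic barcodes held 3, 0, 324, 21202 and 12125 Ccl21a UMIs, which are 44.1, 0, 4619.6, 16361 and 11072 CPM. The male libraries were therefore at or near 0 and the other 3 at 4619.6 CPM or more. Chosen without Ccl21a, 2 of 37 and 0 of 24 lymphatic barcodes of the male libraries had a Ccl21a UMI, against 84.2%, 92.7% and 84.8% in the other 3. The 2 lymphatic barcodes of the first 12-month library held 363 Ccl21a UMIs and the single one of the 24-month library 220. The male libraries were counted on a list of 27775 genes and the others on lists of 27998 or 31053. The part of the gene list, and of reads shared with the copies, in this difference was not tested. Gm21541, the Ccl21d row, was looked up after its values were seen and showed the same split at a lower level, with 0, 0, 3, 774 and 407 UMIs in lymphatic barcodes and 0 in blood endothelial barcodes.

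The label was checked with Lyve1 and Pdpn, markers that the gate did not use. Lyve1 stood at 1926, 2072, 869.7, 3953 and 2043 CPM in lymphatic barcodes and at 3.82, 0, 0, 2.95 and 1.38 CPM in blood endothelial barcodes, with no overlap. Of all 391 members, 315 (80.6%) held a Lyve1 UMI. With each barcode thinned to 1000 UMIs, so that depth was equal, Lyve1 was found in 72.7%, 66.7%, 59.1%, 85.6% and 71.7% of lymphatic barcodes and in at most 0.870% of blood endothelial barcodes. Unthinned shares were 83.8%, 79.2%, 65.2%, 90.7% and 74.5%, with at most 0.957% in blood endothelial barcodes, whose median depths were 1776, 1298, 934.5, 8987.5 and 8804 UMIs. Thinning left out 4, 15, 24, 1 and 21 lymphatic barcodes. Pdpn, the gene of the mucin-like glycoprotein podoplanin, stood at 221, 113, 85.5, 163 and 188 CPM in lymphatic barcodes and at 22.9, 12.8, 56.7, 75.9 and 85.2 CPM in blood endothelial barcodes. Podoplanin is also made by fibroblasts, and 5.94% to 36.8% of the remaining barcodes of these libraries held a Pdpn UMI. Thinned to 1000 UMIs, Pdpn was found in 21.2%, 0%, 13.6%, 13.7% and 17.5% of lymphatic and 0.870%, 1.27%, 15.8%, 4.70% and 2.70% of blood endothelial barcodes. In the nuclei the shares were 3 of 22 and 3 of 19 barcodes, and in the 3-month males the thinned lymphatic barcodes were 9, too few to read a share of this gene.

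**Figure D1:**
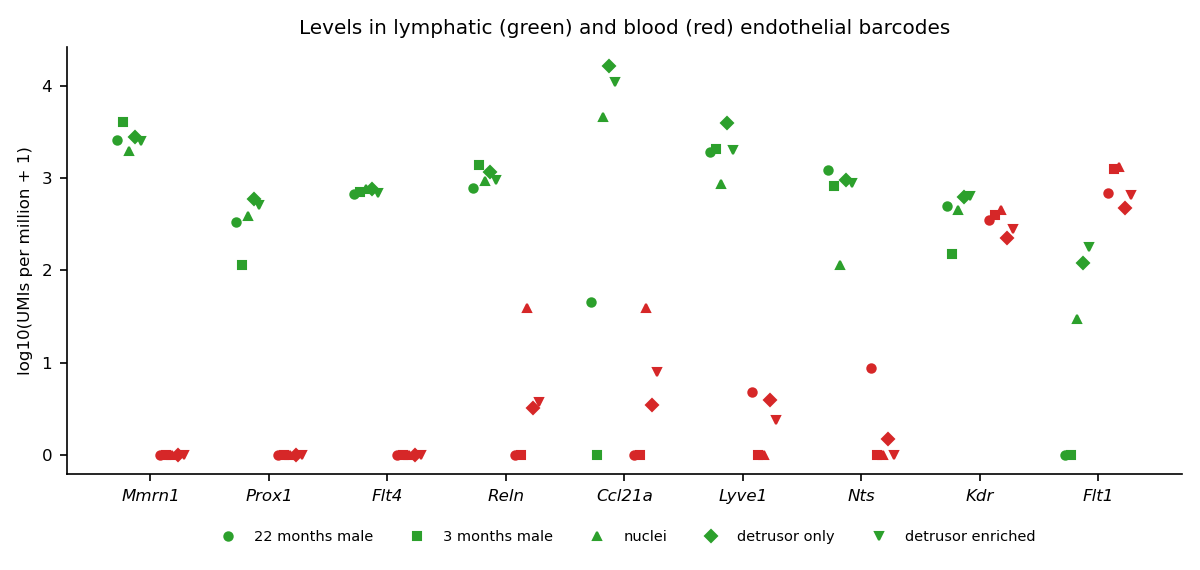
Levels of the 5 lymphatic gate genes, Lyve1, Nts and the blood gate genes Kdr and Flt1 on a log10 axis (CPM plus 1), 1 point per library and class, green for lymphatic and red for blood endothelial barcodes. Lyve1 sits between 869.7 and 3953 CPM in the green points and at 3.82 CPM or less in the red ones, while Ccl21a falls to 44.1 and 0 CPM in the lymphatic barcodes of the male libraries.

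Members close to the threshold are described by their Lyve1, with no test. Of 23 barcodes with exactly 3 gate UMIs, just inside, 5 (21.7%) held a Lyve1 UMI, and of 32 with 2 gate UMIs, just outside, 2 (6.25%) did. A further 71 barcodes with at least 3 gate UMIs from a single gene stayed outside, and 20 of them (28.2%) held Lyve1. In the detrusor-only library 12 members had 3 to 9 gate UMIs, and 1 of these held Lyve1, against 126 of 128 members with 10 or more. In the detrusor-enriched library the counts were 5 of 29 and 100 of 112. The low-gate members of the detrusor-only library had a median of 17034 UMIs, above the 7429 of the others. In the shallower libraries the gap was smaller or absent, with Lyve1 in 21 of 27 against 10 of 10 members of the 22-month males, 16 of 20 against 3 of 4 of the 3-month males and 20 of 30 against 10 of 16 of the nuclei. Low-gate members of the detrusor-only and detrusor-enriched libraries had 17.7 and 21.5 Lyve1 CPM over all UMIs, against 4481 and 2476 in the others. At least 3 blood gate UMIs were held by 10 of 12 and 14 of 29 of them, and by 122 of 128 and 90 of 112 of the others. The lymphatic label of these low-gate members is therefore uncertain, and they stay in the detrusor levels and fits given here.

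Lymphatic barcodes made up 0.408% of the 9080 barcodes of the 22-month males (95% exact interval 0.287% to 0.561%) and 0.376% of the 6378 of the 3-month males (0.241% to 0.559%). They were 1.32% of the 3472 nuclei (0.972% to 1.76%), 2.19% of the 6400 detrusor-only barcodes (1.84% to 2.58%) and 2.29% of the 6163 detrusor-enriched barcodes (1.93% to 2.69%). The mixed-sex whole-bladder libraries of cells held 2 of 3023, 0 of 1021 and 1 of 3224, and 0 of 1021 allows a share of up to 0.294% by the limit of 3 counts and up to 0.361% by the exact interval. The detrusor preparations thus held the highest shares and the mixed-sex whole-bladder cells the lowest. These intervals cover counting error only. With 1 library each of nuclei, detrusor only and detrusor enriched, no difference between preparations was tested. Of the 2 endothelial classes together, lymphatic barcodes were 22.0%, 18.6%, 51.1%, 25.1% and 37.7% (exact intervals 16.0% to 29.1%, 12.3% to 26.4%, 40.4% to 61.8%, 21.5% to 28.9% and 32.8% to 42.8%). The nuclei had the largest lymphatic fraction by this measure, 46 lymphatic to 44 blood endothelial barcodes.

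The shares were also read at equal depth. With barcodes thinned to 1000 UMIs before the gate, the shares were 0.299%, 0.149%, 0.896%, 2.06% and 2.06% of barcodes. Barcodes under 1000 UMIs were left out, so that 8694, 5354, 2010, 6075 and 4609 remained. Lower depth and the loss of shallow barcodes therefore cannot be told apart here. Of endothelial barcodes they were 34.2%, 12.1%, 60%, 43.3% and 40.6%. Nuclei remained the highest in the second measure and the detrusor preparations in the first. The nuclei share came from 18 lymphatic and 12 blood endothelial barcodes (exact interval 40.6% to 77.3%). This interval overlapped those of the 22-month males (23.7% to 46.0%), detrusor only (37.5% to 49.2%) and detrusor enriched (34.2% to 47.2%). A doublet score marked 6, 6, 3, 10 and 15 of the 37, 24, 46, 140 and 141 lymphatic barcodes. Of all 9080, 6378, 3472, 6400 and 6163 barcodes it marked 660, 325, 96, 328 and 304, a smaller share in each library. The male libraries shared 64 barcode sequences and the detrusor libraries 15, and no shared barcode was a lymphatic one.

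**Figure D2:**
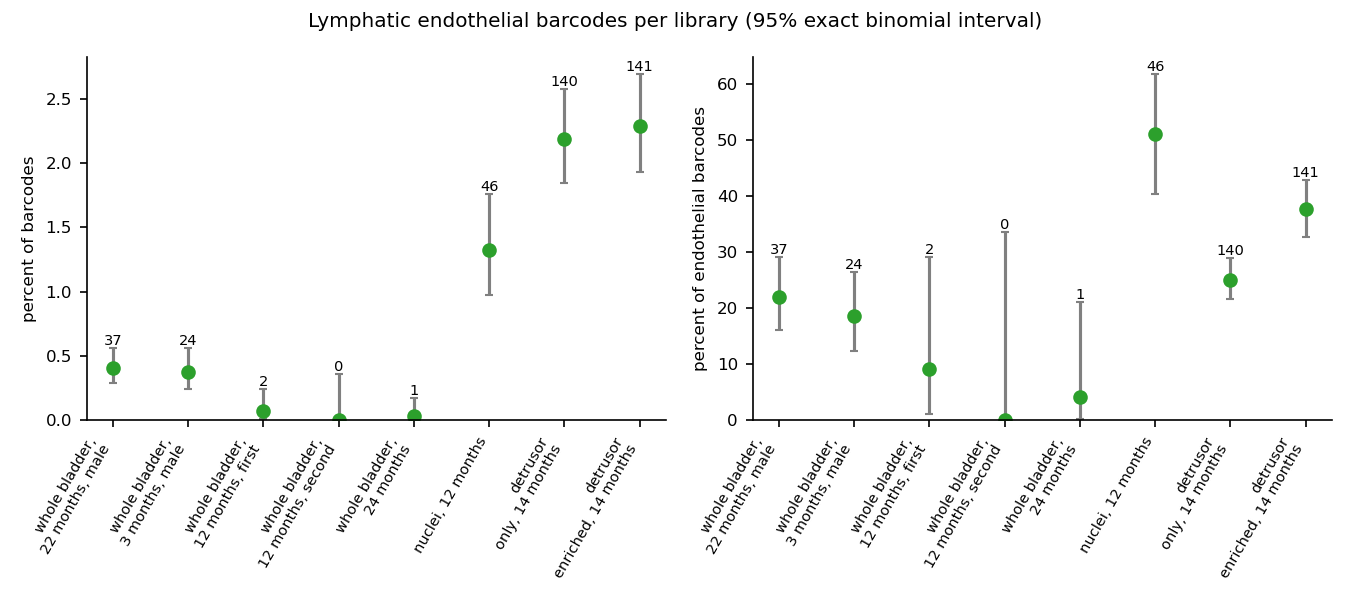
Lymphatic endothelial barcodes per library as a percent of all barcodes (left) and of lymphatic plus blood endothelial barcodes (right), with 95% exact binomial intervals and the number of lymphatic barcodes above each point. The detrusor-only and detrusor-enriched points stand highest at left (2.19% and 2.29%), the nuclei at right (51.1%).

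RNA of other cell types was present in both classes, and its part in the differences below was not tested beyond the filter given with them. The 6 fibroblast markers (Col1a1, Col1a2, Col3a1, Dcn, Lum and Pdgfra) summed to 11672, 7169.6, 1997, 2657 and 3496 CPM over all UMIs in lymphatic barcodes. In blood endothelial barcodes they summed to 15137, 6070.1, 2898, 17314 and 14389, so that the detrusor libraries stood far apart by class. The remaining barcodes of the detrusor libraries had 21722 and 17609. The 8 blood endothelial markers (Vwf, Plvap, Cd34, Ly6c1, Emcn, Selp, Ackr1 and Gpihbp1) summed to 1616, 1965, 503, 1441 and 2657 CPM in lymphatic barcodes. In blood endothelial barcodes these markers summed to 8799, 10357, 1713.5, 1952 and 2905, so that the gap between the classes was narrowest in the detrusor libraries. The 6 mural markers summed to 53.4 to 473 CPM in lymphatic and 149.6 to 513 in blood endothelial barcodes, and the 6 mesothelial markers to 163 to 473 and 131 to 1241. The 6 smooth muscle markers reached 19823 CPM in lymphatic nuclei against 5943 in blood endothelial nuclei, and at most 992 in either class of the other 4 libraries. The 6 macrophage markers, of interest because macrophages can carry Lyve1, summed to 21.2 to 255 CPM in lymphatic barcodes and 65.8 to 879 in blood endothelial barcodes. They were higher in the lymphatic barcodes of the detrusor-only library (145 against 65.8 CPM) and of the nuclei (136 against 91.2 CPM). Of these 6 markers 5, 3, 4, 6 and 5 had a UMI in lymphatic barcodes, with Adgre1 at 0 in all but the detrusor-only library. Mast cell markers were at 0 of 6 in lymphatic barcodes of the male libraries.

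The direct comparison asked how lymphatic differ from blood endothelial cells of the same pool of animals, with counts summed per library and class and the library as a block (edgeR's quasi-likelihood test, two-sided, Benjamini-Hochberg adjustment over all genes). Of 5950 genes outside the gate, 836 (14.1%) were called, of which 390 (6.55%) were higher and 446 (7.5%) lower in lymphatic barcodes at an adjusted p under 0.05, and the median log2 difference over all genes tested was -0.01. Each of the 5 libraries pools animals, so these p-values measure the spread between libraries. The counts rested on the 2 deep detrusor libraries: without the detrusor-only library 126 genes were higher and 103 lower of 3520 tested, and without the detrusor-enriched library 111 and 104 of 3493. Leaving out another library raised the number of genes tested as well as called: 544 were higher and 889 lower of 9351 without the 22-month males, 638 and 810 of 9466 without the 3-month males, and 539 and 794 of 9080 without the nuclei. With blood endothelial barcodes required to hold at least 2 of their 4 genes, 357 of 5020 genes were higher (7.11%) and 371 lower (7.39%). That requirement kept 108, 76, 34, 287 and 188 of 131, 105, 44, 418 and 233 blood endothelial barcodes, so the others had passed on a single gene. In the detrusor-only library Pecam1 was found in 55.7% of blood endothelial and 91.4% of lymphatic barcodes, and Cdh5 in 51.4% and 86.4%. After the data were seen, barcodes with 1% or more of their UMIs on markers of 12 other cell types were also left out, which gave 548 higher (10.9%) and 633 lower (12.5%) of 5044 genes. In this setting adjusted p-values were far smaller for Lyve1 (4.7e-91 against 3.84e-09) and Nts (3.6e-78 against 4.2e-07), though not for Fabp4 (0.0101 against 0.0031). Whether they measure the spread between libraries as the main ones do was not checked. Calls gained in this setting are therefore to be read with caution.

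The largest fitted rise was that of Lyve1 itself, 10.19 on the log2 scale (SE 0.37, adjusted p = 3.84e-09). Nts, the gene of the neuropeptide precursor neurotensin, followed with 10.11 (SE 0.60, adjusted p = 4.2e-07). The order of Lyve1 and Nts lay within their SEs and rested on 16 and 4 blood endothelial UMIs. By summed counts Nts had the larger ratio, 1520 against 1248.5. The level of Nts was 1235, 829, 114, 946 and 891 CPM in lymphatic barcodes and 7.65, 0, 0, 0.491 and 0 CPM in blood endothelial barcodes. Every lymphatic value lay above every blood endothelial one, with the nuclei lowest. Thinned to 1000 UMIs, Nts was found in 30.3%, 33.3%, 18.2%, 34.5% and 30.8% of lymphatic barcodes and in at most 0.248% of blood endothelial barcodes, so that unlike Lyve1 it marked a minority of members at this depth. Duox2, an oxidase that makes hydrogen peroxide, had 157 UMIs in lymphatic and 0 in blood endothelial barcodes, and was at least 137-fold higher against a floor of 3 counts over the group (adjusted p = 3.91e-05). It stood at 44.1, 75.3, 71.3, 70.2 and 51.1 CPM in lymphatic barcodes. Duox2 had too few counts to be tested without either detrusor library.

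Dtx1, a ubiquitin ligase of the Notch pathway, was higher by 7.55 (SE 0.45, adjusted p = 4.2e-07), at 368, 226, 242, 333 and 272 CPM against at most 18.9 CPM in blood endothelial barcodes. Adgrg3, an adhesion G protein-coupled receptor, was higher by 6.82 (SE 0.50, adjusted p = 1.99e-06) and ranged from 245 to 618 CPM against at most 19.2 CPM. Slc45a3, a membrane transporter, was higher by 6.27 (SE 0.32, adjusted p = 1.28e-07). Pard6g, a scaffold of the cell polarity complex, stood at 909 ± 183 CPM against 41.0 ± 72.5 CPM (mean and SD, n = 5 libraries), a difference of 5.90 (SE 0.72, adjusted p = 3.62e-04). The call of Pard6g was lost with only the libraries of the longest gene list. The other 5 genes of the rule were Sh3gl3 (6.69), a membrane-bending endophilin, the adaptor Apba2 (6.53), the transmembrane collagen Col23a1 (6.00), the transporter Slc16a12 (5.41) and the kinase Prkcq (5.31). All 12 were higher in 5 of 5 libraries, a direction that the rule required. Slc16a12 and Prkcq, like Duox2, were not tested without either detrusor library.

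The lowest genes mixed capillary genes with genes of other cell types. Fabp4, a fatty acid carrier of capillary endothelium, stood at 3197, 799.9, 246, 2752 and 1818 CPM in blood endothelial and at 29.4, 37.7, 85.6, 648 and 62.1 CPM in lymphatic barcodes, lower by 3.85 on the log2 scale (SE 0.66, adjusted p = 0.0031). Each library had the lymphatic value below the blood endothelial one, as the rule for the named genes required. The detrusor-only lymphatic value still exceeded the blood endothelial value of the nuclei. Without the nuclei the call was lost (log2 difference -4.25). Ly6c1, a surface protein of blood capillaries, was lower by 3.65 (SE 0.53, adjusted p = 9.38e-04), at 2493, 3340.2, 208, 473 and 492 CPM against 118, 37.7, 0, 137 and 48.4 CPM. Rgcc, a cell cycle regulator, was lower by 3.61 (adjusted p = 8.37e-05), and the phospholipase Plcb1 by 3.67. Plcb1 was not tested without either detrusor library. With the barcodes rich in other cells' markers left out, Fabp4 (log2 difference -4.96), Ly6c1 (-4.45), Rgcc (-4.27) and Plcb1 (-4.33) kept their calls.

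The other 8 of the 12 lowest are known from other cells: the collagen-binding proteoglycan Fmod, Gpc3 and the mesenchymal factor Prrx1 from fibroblasts, Msln and Upk3b from mesothelium, Rgs5 from pericytes, and Myoc and Sult1e1 from stromal cells. Their log2 differences were -5.98, -4.31, -3.87, -4.57, -3.66, -4.77, -6.31 and -5.95 in that order. Fmod had 3 UMIs in lymphatic and 512 in blood endothelial barcodes, a ratio of 0.0154 with a counting interval of 0.00316 to 0.0452. With barcodes rich in other cells' markers left out, 7 of these 8 had too few counts to be tested and Rgs5 kept its call (-4.99). Msln, Upk3b and Rgs5 are themselves among the markers of that filter, so that it removes their counts by construction. With blood endothelial barcodes required to hold 2 of their genes, Upk3b was at -0.86 (adjusted p = 0.136). Fmod, Gpc3 and Prrx1 were not tested without either detrusor library, and Sult1e1 not without the detrusor-enriched one. The fibroblast marker sums above moved with these genes in the detrusor libraries, where blood endothelial barcodes carried more of them.

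**Figure D3:**
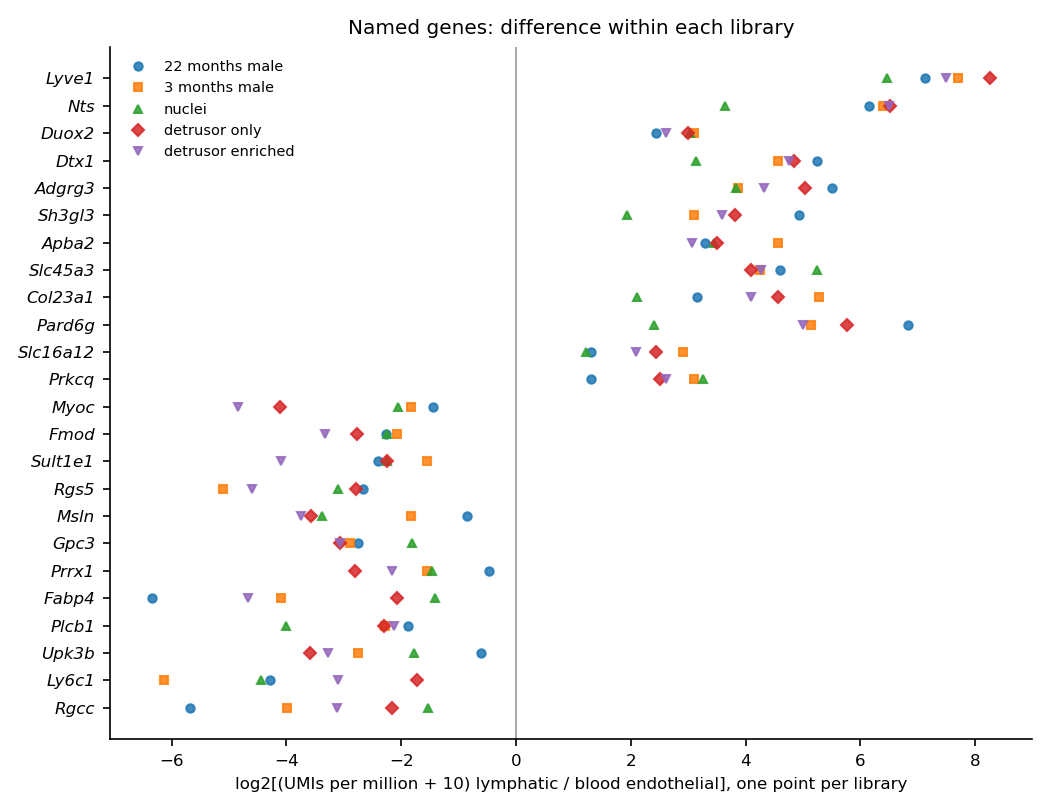
Difference between lymphatic and blood endothelial barcodes in each of 5 libraries for the 12 genes with the largest fitted rise and the 12 with the largest fall, as log2 of the ratio of CPM plus 10. All points of the upper 12 genes lie right of 0 and all points of the lower 12 lie left of it, a direction that the choice of genes required.

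The lymphatic identity list held 35 genes outside the gate, chosen with results of these data known. Of 30 tested, 24 were higher in lymphatic barcodes, 2 lower and 4 not called, with a median log2 difference of 2.22 against -0.01 over all genes, and against 6.55% of all genes higher. Without the detrusor-enriched library 15 of 24 were higher, and without the detrusor-only library 17 of 26. Counts of this and the later lists in another setting belong beside the counts over all genes given above for that setting. Among its transcription factors, Tbx1, a regulator of lymphatic development, was higher by 4.50 (SE 0.38, adjusted p = 5.82e-06), at 176.5, 377, 171, 169 and 124 CPM against 22.9, 25.6, 18.9, 5.2 and 2.8 CPM. Maf was higher by 3.43 (SE 0.44, adjusted p = 2.38e-04), at 309, 489.7, 727, 687 and 732 CPM against 11.5, 0, 18.9, 94.6 and 118 CPM. For both genes every lymphatic value lay above every blood endothelial one. Nr2f2, a nuclear receptor that induces Prox1 in the embryo, was higher by 1.52 (SE 0.26, adjusted p = 0.00148), Meox1 by 2.84 and Nfatc1 by 1.55, the last with its call lost without either detrusor library. Sox18, which acts before Prox1 in development, did not pass (-0.01, SE 0.31, adjusted p = 0.997), nor did Gata2 and Hhex. Hhex was still higher in each library, at 102.9, 75.3, 57.0, 78.7 and 108.7 CPM against 68.8, 70.4, 0, 45.9 and 52.1 CPM. With the barcodes rich in other cells' markers left out, Sox18 was called lower (-0.71, adjusted p = 0.0166).

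Among its surface and secreted proteins, Fgl2, a fibrinogen-like protein, was higher by 4.01 (SE 0.27, adjusted p = 1.17e-06), at 2956, 2298, 856, 2122 and 1807 CPM against 95.6, 83.2, 37.8, 178 and 157 CPM. Stab1, a scavenger receptor, was higher by 3.36 (SE 0.31, adjusted p = 1.1e-05), the decoy chemokine receptor Ackr2 by 3.37 and the surface glycoprotein Thy1 by 3.13. Pdpn was higher by 1.35 (SE 0.30, adjusted p = 0.00751) in 5 of 5 libraries, and by 5.60 with the barcodes rich in other cells' markers left out, of which fibroblast genes are a part. The tetraspanin Cd9 (1.23), the lipopolysaccharide-binding protein Lbp (2.44), the mechanosensitive channel Piezo2 (2.21), and the guidance ligands Sema3a (2.73) and Sema3d (2.09) were also higher. Svep1, a large matrix protein that takes part in lymphatic growth, was lower by 2.53 and the growth factor Igf1 by 2.92, and neither had enough counts once barcodes rich in other cells' markers were left out. Without either detrusor library the calls of Pdpn and Svep1 were lost and Ackr2 was not tested, and without the detrusor-enriched library that of Sema3d was lost.

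The VEGF-C pathway gave calls in both directions, with 3 of 11 tested genes higher and 3 lower (median 0.73), against 6.55% of all genes higher and 7.5% lower. Nrp2, the co-receptor of VEGFR-3, stood at 235, 113, 656, 369.6 and 544 CPM in lymphatic barcodes against 107, 6.4, 302, 186 and 259.9 CPM, higher in 5 of 5 libraries by 1.12 (SE 0.27, adjusted p = 0.0132). Nrp1, the co-receptor of VEGFR-2, stood at 14.7, 0, 0, 41.7 and 32.9 CPM against 451, 557, 340.1, 228 and 214 CPM, lower by 3.19 (SE 0.40, adjusted p = 1.25e-04). The 2 neuropilins thus lay on opposite sides. The ligand gene Vegfc was lower by 2.51 (SE 0.43, adjusted p = 0.00139), with 25 UMIs in lymphatic and 318 in blood endothelial barcodes, the receptor Ephb4 was higher by 1.16 and the ligand Pgf by 1.93. Without either detrusor library the calls of Nrp2 and Ephb4 were lost and Vegfc and Pgf were not tested, and no gene of the list was then called higher. Without the 3-month males 5 of 13 genes were higher, and without the nuclei 5 of 14. With every barcode holding 3 UMIs of another cell type's markers left out, which kept 55 members in all, Nrp2 was at -0.05. Of the VEGF receptors in the blood gate, Kdr (VEGFR-2) stood at 500, 151, 456, 623 and 648 CPM in lymphatic and 356, 403, 454, 224 and 283 CPM in blood endothelial barcodes. Flt1 (VEGFR-1) had 0, 0, 2, 156 and 197 UMIs in lymphatic barcodes, 28.5 CPM or less in the first 3 libraries, against 477 to 1323 CPM in blood endothelial barcodes, which the gate partly chose by it. The 156 and 197 UMIs of the detrusor libraries lay in 12 of 140 and 15 of 141 lymphatic barcodes.

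Of 15 genes of valves and collecting vessels tested, 5 were higher and 1 lower (median 0.38), where 6.55% of all genes were higher and 7.5% lower. Without the 3-month males 8 of 16 were higher, and with the barcodes rich in other cells' markers left out 3 of 14 were lower. Foxc2, a transcription factor needed for valve formation, was higher by 2.82 (SE 0.47, adjusted p = 0.00133), at 58.8, 113, 0, 23.1 and 38.4 CPM against 7.6, 0, 0, 4.7 and 3.7 CPM. Cldn11, a tight junction protein, was higher by 3.54 (SE 0.45, adjusted p = 2.07e-04), at 147, 113, 0, 29.3 and 26.5 CPM against at most 12.8 CPM. Neither gene had a UMI in lymphatic nuclei. Itga9, the integrin of valve leaflets, was higher by 1.73 (SE 0.32, adjusted p = 0.0027) and the forkhead factor Foxp2 by 1.54, while Neo1 was lower by 1.72. Without either detrusor library 1 gene of 11 tested was called higher and none lower, and Foxc2 and Neo1 were not tested. Itga9 lost its call without the detrusor-only library and Foxp2 without the detrusor-enriched one, and each was not tested without the other. Klf2, a factor induced by flow, did not pass (-1.20, adjusted p = 0.157), but was called lower with the barcodes rich in other cells' markers left out (-1.44, adjusted p = 0.0421).

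Of 22 genes of leukocyte traffic tested, 4 were higher and 7 lower (median -0.41), against 6.55% of all genes higher and 7.5% lower. Il7, the gene of a T cell survival factor, was higher by 4.52 (SE 0.36, adjusted p = 3.63e-06), at 132, 301, 99.8, 245 and 194 CPM in lymphatic barcodes against 0, 0, 18.9, 9.1 and 11.1 CPM. It did not overlap between the classes and remained called in each leave-out of a library. Ackr3, a scavenger receptor for Cxcl12 and adrenomedullin, was higher by 1.07 (SE 0.24, adjusted p = 0.00866), a call lost without either detrusor library. Its ligand gene Cxcl12 was lower by 1.92 (SE 0.32, adjusted p = 0.0012), at 176.5, 113, 143, 236 and 109 CPM against 723, 461, 151, 867 and 546 CPM. The adhesion molecule Jam2 (-2.10), the inhibitory ligand Cd200 (-1.28) and Kitl, the ligand of the receptor Kit (-2.10), were lower too, Jam2 with its call lost without the 3-month males or the nuclei. Spns2, which exports sphingosine 1-phosphate, was higher by 0.93 (adjusted p = 0.0388), but not with 2 blood endothelial genes required (0.62, adjusted p = 0.12) and was not tested without either detrusor library. The sphingosine 1-phosphate receptor S1pr1 did not pass (0.62, adjusted p = 0.12), but did in 2 of 20 alternatives, without the 3-month males (0.74, adjusted p = 0.0439) and with only the libraries of the longest gene list (0.81). Without the detrusor-only or the detrusor-enriched library 1 gene was higher and 4 lower, of 14 and 13 tested.

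Of 24 pan-endothelial genes tested, 4 were higher, 2 lower and 18 not called, with a median of -0.06. Over all genes 6.55% were higher and 7.5% lower, and the share of the list lower was near the latter. Cldn5, the main claudin of endothelial tight junctions, stood at 3294, 2674, 1041, 2051 and 1399.8 CPM in lymphatic barcodes against 1816, 525, 416, 679 and 398 CPM, higher by 1.46 (SE 0.22, adjusted p = 5.88e-04). It was higher in each of the 5 libraries, though the ranges of the classes overlapped. Gpr182, a scavenging chemokine receptor, was higher by 1.97, Ecscr by 1.05 and Calcrl, the receptor of adrenomedullin, by 0.92, all 3 with their calls lost or untested without either detrusor library. Calcrl was also lost with 2 blood endothelial genes required (0.43, adjusted p = 0.32). The calls of Ecscr and Calcrl were lost as well with the barcodes rich in other cells' markers left out. Esam, a junction protein, was lower by 2.25 and Sox17, an arterial transcription factor, by 2.78 (SE 0.59, adjusted p = 0.00976), at 0, 0, 0, 78.7 and 49.3 CPM against 501, 1286, 151, 245 and 183 CPM. The calls of Esam and Sox17 were lost without the nuclei. With barcodes rich in other cells' markers left out, 14 genes of this list were lower and 2 higher, of 25 tested.

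Of 23 blood endothelial genes tested, 9 were lower and 1 higher (median -1.32), against 6.55% of all genes higher and 7.5% lower. Without the 3-month males 5 were higher, and with the barcodes rich in other cells' markers left out 14 of 22 were lower. Vwf, the haemostatic factor, stood at 0, 0, 14.3, 50.9 and 147.9 CPM against 298, 365, 283, 122 and 255 CPM, lower by 1.84 (SE 0.50, adjusted p = 0.0316). Ly6a was lower by 2.23, the sialomucin Cd34 by 2.31, the tip cell gene Esm1 by 3.50, the fatty acid receptor Cd36 by 1.74 and the water channel Aqp1 by 1.5. The call of Vwf was lost without the 3-month males or the nuclei, that of Cd34 without the nuclei, those of Esm1 and Cd36 without the detrusor-enriched library, and that of Aqp1 without any 1 of the libraries but the detrusor-enriched. Btnl9, a butyrophilin-like gene on the blood endothelial list, went the other way, at 103, 75.3, 271, 137 and 178 CPM in lymphatic barcodes against 11.5, 6.4, 0, 4.7 and 11.1 CPM (4.25, SE 0.35, adjusted p = 4.21e-06). Plvap, the diaphragm protein of fenestrated capillaries, did not pass (-2.32, adjusted p = 0.0631), with 88.2, 0, 85.5, 127 and 284 CPM against 2126, 2278, 321, 289.7 and 371 CPM. It passed with 2 blood endothelial genes required (-2.70, adjusted p = 0.035) and without the detrusor-enriched library (-3.26). Selp, the rolling receptor P-selectin, did not pass either (-1.28, adjusted p = 0.323), but was called lower with the barcodes rich in other cells' markers left out (-1.77, adjusted p = 3.02e-05). Selp was at 0, 0, 0, 199 and 1246 CPM in lymphatic barcodes, the last above the 1037 CPM of blood endothelial barcodes of the same library.

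Of 17 lipid handling genes tested, 9 were lower and 0 higher (median -1.56), against 6.55% of all genes higher and 7.5% lower, by edgeR's quasi-likelihood test. At an unadjusted p under 0.05, 2 were higher and 10 lower, and DESeq2 called 0 higher and 7 lower. Scarb1, a lipoprotein receptor, stood at 58.8, 0, 42.8, 65.6 and 84.0 CPM against 757, 1101, 491, 232 and 290.3 CPM, lower by 2.70 (SE 0.44, adjusted p = 0.0015). The classes did not overlap for Scarb1. Lpl, the lipoprotein lipase, was lower by 2.08 and the fatty acid carrier Fabp5 by 2.12. Without the detrusor-only library 7 of 11 genes of the list were lower and without the detrusor-enriched library 5 of 11. Lpl was not tested without either detrusor library, and the call of Fabp5 was lost without the detrusor-enriched one. Without the 3-month males 4 of 19 genes of the list were higher and 9 lower.

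Of 18 Notch, BMP and TGF-beta genes tested, 5 were higher and 5 lower (median -0.28), against 6.55% of all genes higher and 7.5% lower. Without the detrusor-only library 3 were higher and 2 lower of 14, and without the detrusor-enriched library 2 and 3 of 14. Tgfbr2, a receptor subunit for TGF-beta, stood at 250, 377, 428, 637 and 648 CPM against 107, 89.6, 113, 139 and 164 CPM, higher by 1.80 (SE 0.26, adjusted p = 3.31e-04). No lymphatic value lay as low as a blood endothelial one. The ligand gene Tgfb2 was higher by 1.42, with its call lost without either detrusor library, while the inhibitory factors Id1 (-1.62) and Id3 (-1.66), which BMP signals induce, were lower. The call of Id1 was lost without the detrusor-only library. Among basement membrane and matrix genes 6 of 24 were higher and 3 lower (median -0.10), beside the same shares over all genes. Without the detrusor-only library 4 and 2 of 22 were called, without the detrusor-enriched library 3 and 1 of 22, and with the barcodes rich in other cells' markers left out 8 and 10 of 23. Timp3, an inhibitor of metalloproteinases, was higher by 1.70 (SE 0.20, adjusted p = 7.7e-05), at 1809, 3578, 1711, 3660.0 and 2959 CPM against 639, 973, 605, 848 and 707 CPM, with no overlap. The laminin subunit Lama4 was higher by 1.82 and the collagen Col15a1 lower by 2.87, the last with its call lost without the detrusor-enriched library.

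In the main fit the remaining lists are read against the same 6.55% of all genes higher and 7.5% lower. With the barcodes rich in other cells' markers left out, 10.9% of all genes were higher and 12.5% lower. Without the detrusor-only library 126 and 103 of all 3520 genes were called, and without the detrusor-enriched one 111 and 104 of 3493. Among junction genes 3 were higher and 3 lower of 15 tested (median 0.05), among adrenomedullin genes 3 and 1 of 6 (median 0.79), and among scavenger and hyaluronan genes 3 and 2 of 8 (median 0.61). Without either detrusor library no adrenomedullin gene of the 4 or 3 tested was called. Junction genes moved to 5 higher and 2 lower of 17 without the 3-month males and to 4 and 1 of 18 without the nuclei. Scavenger and hyaluronan genes lower were 5 of 10 without the 22-month males, 4 of 10 without the 3-month males, 1 of 6 without the detrusor-only library and 0 of 5 without the detrusor-enriched one. The lower genes of that list were Colec12 and Cd36. With the barcodes rich in other cells' markers left out Colec12 was called higher instead, and with 2 blood endothelial genes required only Cd36 was called lower. Of 41 endothelial transcription factors, 10 were higher and 6 lower (median 0.11). Without the detrusor-only library 5 and 4 of 31 were called, without the detrusor-enriched library 4 and 5 of 32, and with the barcodes rich in other cells' markers left out 9 and 14 of 40. Among them the haematopoietic and endothelial factors Tal1 (1.81) and Lyl1 (1.88) were higher, their calls lost without the detrusor-enriched library and Tal1 not tested without the detrusor-only one, and the hypoxia factor Epas1 was lower (-1.74). Of 34 genes that respond to tissue dissociation, 10 were lower and 0 higher (median -0.92, edgeR's quasi-likelihood test). Nr4a1 (-1.74), Socs3 (-1.28) and Egr1 (-1.06), early response genes, were among the lower, and all 3 calls were lost without the detrusor-only library, which left 1 gene of the list lower. The call of Egr1 was also lost without any other library but the nuclei. Without the nuclei 15 genes of the list were lower, without the detrusor-enriched library 5 and without the 22-month males 6. With the barcodes rich in other cells' markers left out 22 of 33 were lower and 1 higher. At an unadjusted p under 0.05, 1 gene was higher and 20 lower, and DESeq2 called 0 higher and 10 lower.

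**Figure D4:**
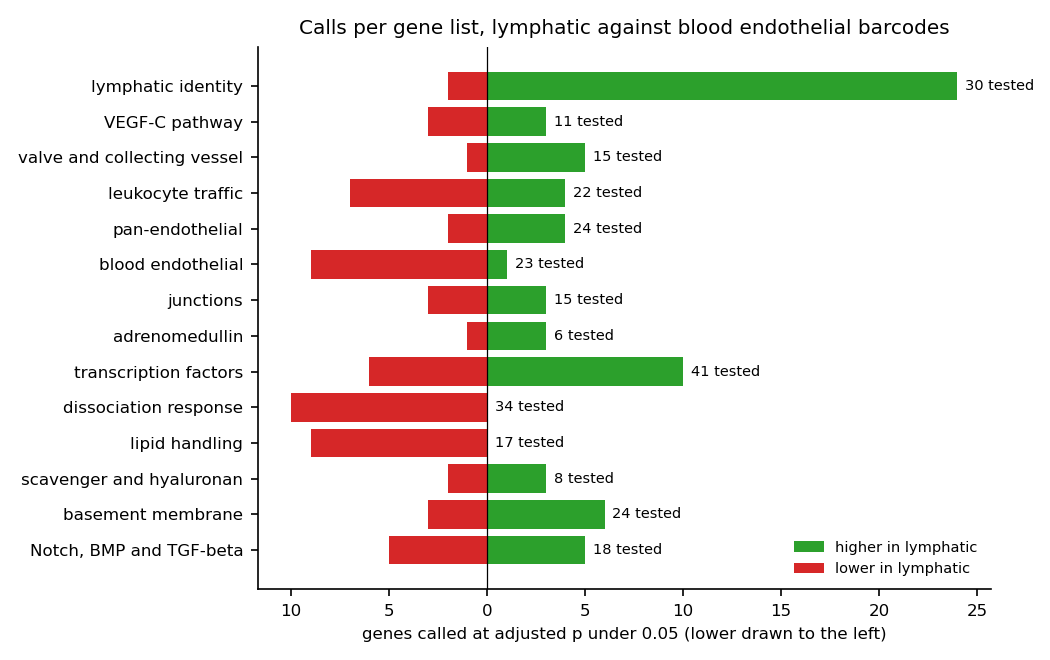
Number of genes of each list called higher (green, right) or lower (red, left) in lymphatic than in blood endothelial barcodes at an adjusted p under 0.05, with the number tested at the end of each bar. The lymphatic identity list has 24 of 30 genes to the right, and the lipid handling list 9 of 17 to the left and 0 to the right.

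Valve and capillary genes were found in only some of the members of the deep detrusor libraries. An Nts UMI was held by 99 of 140 lymphatic barcodes of the detrusor-only and 76 of 141 of the detrusor-enriched library. Lyve1 stood at 4651 CPM over all UMIs in the barcodes with Nts against 1630.3 in those without in the first library, and at 2582 against 836 in the second. Most of this gap went with the members near the threshold, which had little Lyve1. Among members with 10 or more gate UMIs, a restriction added after the data were seen, Lyve1 stood at 4651 CPM with Nts (99 barcodes) against 3604 without (29) in the detrusor-only library. It stood at 2586 (74) against 2056 (38) in the detrusor-enriched library. Median depths with and without Nts were then 7568 and 6153 UMIs and 8361.5 and 3903.5 UMIs, so that depth moved with the split as well. Foxc2 was found in 23 of 140 and 28 of 141 barcodes, Itga9 in 55 and 62, and Cldn11 in 23 and 12. Among members with 10 or more gate UMIs, Lyve1 was higher with each of these genes in both libraries, except with Cldn11 in the detrusor-enriched one. With and without Cldn11 it stood at 4954 and 4340.9 CPM in the detrusor-only library and at 1380.3 and 2619 CPM in the detrusor-enriched one, where 11 barcodes held Cldn11. With and without Foxc2 it stood at 5520.1 and 4158 CPM and at 2560.3 and 2430.4 CPM, and the barcodes with Foxc2 were deeper. With and without Itga9 it stood at 4580.5 and 4387.4 CPM and at 2550.5 and 2343.5 CPM, where the barcodes with Itga9 were deeper as well. With and without Gja4, another gene of the valve list, Lyve1 stood at 4484.9 and 4479.1 CPM and at 2369.4 and 2531.8 CPM. It was thus lower with Gja4 in the detrusor-enriched library. These are descriptions of cells within 1 library and carry no test.

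The sections gave the genes in place, in spots that can each hold several cells. Ccl21a had 2253 and 1981 UMIs in the sections of 22 months and 2293 and 2752 in those of 14 months, which are 70.4, 87.4, 104 and 119.7 CPM. It was found in 31.0%, 36.9%, 45.0% and 36.9% of 1317, 1038, 937 and 1123 spots. The 10 highest spots of each section held 34.6%, 36.1%, 21.7% and 30.2% of its UMIs, with up to 151, 130, 80 and 183 in a single spot. Mmrn1 had 320, 196, 400 and 282 UMIs and its 10 highest spots 28.7%, 39.3%, 25% and 37.6% of them. Lyve1 had 415, 296, 446 and 689 UMIs in 20.3%, 17.4%, 26.2% and 34.0% of spots, and Prox1 17, 14, 33 and 24 UMIs. Ccl21a was thus present in sections labelled male, unlike the male cell libraries, which held 44.1 and 0 CPM in lymphatic barcodes. Gm21541 had 0 to 2 UMIs per section.

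Bulk RNA, which the gate did not use, set intact against dissociated bladders. In bulk, fewer cells of a type and less RNA per cell cannot be told apart. Prox1 had 87, 279 and 85 reads in intact and 418, 514 and 458 in dissociated libraries, which are 3.75 ± 0.40 and 17.8 ± 2.4 CPM (mean and SD, n = 3 and 3). The groups did not overlap, and Prox1 was higher in dissociated bladders by 2.36 on the log2 scale (SE 0.15, adjusted p = 1.39e-05, edgeR's quasi-likelihood test). Over all 16195 genes tested, 28.6% were higher and 30.6% lower in dissociated bladders (59.2% in either direction), 4635 and 4952 genes, and with library size alone as the scaling 3766 and 6046. With that scaling the median log2 difference of all genes moved from -0.02 to -0.14. Mmrn1 was higher by 1.02 (SE 0.10), at 36.1, 31.1 and 32.6 CPM in intact and 61.0, 69.5 and 55.2 CPM in dissociated libraries. Flt4 was higher by 0.58 (SE 0.13), Reln by 0.82 (SE 0.20) and Lyve1 by 0.98 (SE 0.19), the last at 41.5, 27.3 and 37.0 against 72.7, 69.5 and 48.8 CPM. Prox1 had the largest difference of these 4 gate genes. Ccl21a had 0, 2 and 1 reads in intact and 0, 3 and 0 in dissociated libraries, near 0 in both preparations.

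Of the lymphatic identity list, 19 of 34 genes were higher and 6 lower in dissociated bladders (median 0.61 against -0.02 over all genes tested). Nts was higher by 3.92 (SE 0.25, adjusted p = 1.46e-05), at 0.659, 0.590 and 0.702 CPM in intact and 6.49, 9.83 and 10.6 CPM in dissociated libraries. Ptx3, a pattern recognition protein that could not be tested in the droplet comparison, was higher by 6.04 (SE 0.36). Stab2, a hyaluronan scavenger receptor, was lower by 2.36 (SE 0.14), Itga9 by 1.58 (SE 0.11) and Nrp2 by 1.00 (SE 0.10), at 441, 429.5 and 479 CPM in intact and 229, 207 and 185 CPM in dissociated libraries. Genes of this list therefore lay on both sides. Of 25 pan-endothelial genes 19 were higher and 1 lower (median 0.96), and of 26 blood endothelial genes 18 and 1 (median 0.94), where 28.6% of all genes were higher and 30.6% lower. Genes of the dissociation response were higher in 36 of 37 genes (median 4.15).

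**Figure D5:**
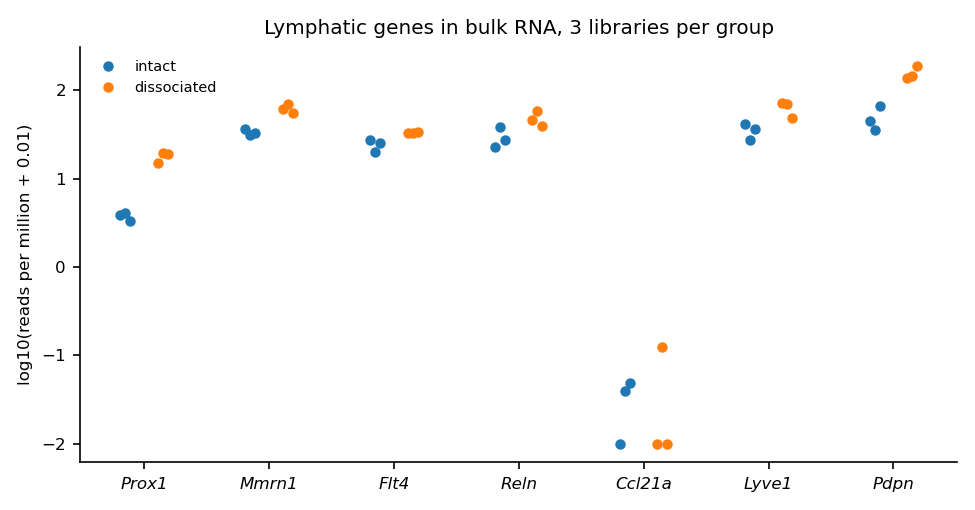
Lymphatic genes in the bulk libraries on a log10 axis (CPM plus 0.01), 1 point per library, blue for intact and orange for dissociated bladders, 3 libraries each. Prox1 lies between 3.31 and 4.11 CPM in intact and between 15.1 and 19.3 CPM in dissociated libraries, while Ccl21a stays at or below 0.113 CPM in all 6.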

How the data were processed

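The 8 droplet libraries, 4 sections and 6 bulk libraries were used as deposited. The deposited tables hold raw UMI counts per barcode or spot and raw read counts per gene for bulk, as their whole-number values and unequal totals show. Per the labels' protocols, cells and nuclei were run on Chromium, sections on Visium, and bulk RNA was column-purified and polyA-selected. The submitters' processing notes name mm10, bcl2fastq, Cell Ranger, Space Ranger, Subread and featureCounts, with no role or version, and the counting of reads that match several genes is not given in the sources used here. Droplet tables held 5197910 to 55374101 UMIs and bulk libraries 23083752 to 68760791 reads. Among 29214 rows for bulk, 436 repeated a gene under an older symbol with equal counts and were dropped.

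Barcodes with at least 500 UMIs entered the gate. Counts were summed per library and class, libraries needed at least 10 barcodes in both classes, mitochondrially encoded genes were left out, and the 9 gate genes stayed in the fit but out of every count. The test was edgeR 4.0.16's quasi-likelihood test (R 4.3.3, limma 3.58.1) with TMM scaling, filterByExpr and library as a block, or no block for bulk, two-sided, with Benjamini-Hochberg adjustment. The library block pairs both classes of a library. SE is the fitted log2 difference divided by the root of its F statistic. Doublet scores used a reimplementation of Scrublet's method in Python 3.11.15 with numpy 2.4.6 and scikit-learn 1.9.0. Exact binomial and Poisson intervals (95%, scipy 1.17.1) cover counting error only.

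The members, gene lists and tests were chosen with earlier results of these data known. Genes named by rule were the 12 with the largest rise and the 12 with the largest fall with an adjusted p below 0.05, 20 CPM or more on average in the higher class and the same direction in every library, without gate genes and predicted symbols; members of the lists could be named as well. Bulk replicates are separate libraries, and nothing says whether they came from separate animals, so p-values measure the spread between libraries. Tested on simulated counts for the 5959 genes of the endothelial comparison, the fit recovered 20%, 80%, 88% and 90% of genes changed by 1, 2, 3 and 4 on the log2 scale, with 2 false calls. The simulation gave every gene the same dispersion and the same mean level in every library. It held no differences between libraries and no RNA of other cells, so recovery and false calls in the real data can differ. Comparisons of lymphatic barcodes between ages of whole-bladder cells and between detrusor and mixed-sex whole-bladder cells were planned. They were not run, since too few of the libraries planned for each held 10 lymphatic barcodes. Alternatives were DESeq2 1.42.0, other scalings, filters, gates, depths, blocks and left-out libraries.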

Additional observations from a re-analysis of the deposited data

Results flagged for a closer look

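Sox18, a transcription factor that acts before Prox1 in lymphatic development, went opposite ways in the male whole-bladder and the detrusor libraries, and this difference was not tested. As log2 of the ratio of lymphatic to blood endothelial CPM plus 1, Sox18 was at -0.32 in the 22-month males (147 against 184 CPM, from 10 and 48 UMIs). In the 3-month males Sox18 was at -1.56 (75.3 against 224.0 CPM, from 2 and 35 UMIs). The lymphatic values of the male libraries therefore rested on few UMIs. Sox18 was at 0.39 in the detrusor-only library (27.0 against 20.4 CPM, from 35 and 83 UMIs). In the detrusor-enriched library it was at 0.55 (178 against 121 CPM, from 195 and 263 UMIs). The nuclei lay on the side of the males, at 28.5 against 75.6 CPM, from only 2 and 4 UMIs. Age, sex mix, preparation and gene list go with the libraries and cannot be told apart.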

How the results depend on the processing

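Against 390 genes higher and 446 lower in lymphatic barcodes, dropping the library as the replicate block, which also cut the genes tested to 3602, left 72 and 38, barcodes of at least 1000 UMIs gave 626 and 933, thinning to 1000 UMIs 252 and 261, only the male libraries 96 and 176, and only the libraries with the longest gene list 760 and 1054. Without barcodes with 3 UMIs of another cell type's markers the counts were 127 and 209, without a filter on low counts 1155 were lower (578 higher), and with at least 5 gate UMIs 676 were lower. Leaving out a library gave 111 to 638 higher and 103 to 889 lower. DESeq2 called 339 and 325. The cause of these shifts was not tested, except that the number of genes tested changed with the filters, the block and the libraries (2023 to 16929 against 5950). The 1000-UMI settings lost the 3-month males, and 3 libraries remained without barcodes with other cells' markers. The 391 members became 344 with 5 gate UMIs, 326 at 1000 UMIs, 349 without barcodes over the mitochondrial limit and doublets, 55 and 317 without 3 UMIs or 1% of other cells' markers, and 274 when thinned. Of the alternatives for single genes, 1609 kept direction and side of the threshold, 139 lost the call, 23 gained it and 15 changed sign.

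Sign changed for Sox18, to 0.082 with library size alone, 0.025 without Ccl21a in the gate, 0.14 at 5 gate UMIs, 0.24 at 1000 UMIs, 0.0029 without doublets and barcodes over the mitochondrial limit, and 0.38 with the longest gene list. Leaving out a library gave Sox18 from -0.60 to 0.24 (0.099 without the 22-month males, 0.24 without the 3-month males and 0.030 without the nuclei). Without barcodes with 3 UMIs of other cells' markers Nrp2 was at -0.054, Spns2 at -0.082 and S1pr1 at -1.11, and without those with 1% S1pr1 was at -0.13 and Efemp1 at 0.011. Calcrl was at -0.27 when thinned. Colec12, not among the single genes counted above, was called lower in the main fit and higher without barcodes with 1% of other cells' markers. In bulk, the replicate number as a block gave 4743 genes higher and 5182 lower; same-numbered libraries correlated at 0.243, 0.411 and -0.109, and intact library 1 correlated more with dissociated library 3 (0.349). The counts over all genes and over the lymphatic list stayed within 1.5 times in 12 bulk alternatives, and the 10 genes printed with a bulk log2 difference kept their calls; the other lists' bulk counts were not recomputed. A fit of the 3 mixed-sex whole-bladder libraries alone was not run, since they held 3 lymphatic barcodes. Depth limits the male and nuclei libraries, where lymphatic barcodes had medians of 895.5 to 1306 UMIs.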
